A study of Bos taurus with 35 samples.

Results

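Skeletal muscle was compared with subcutaneous fat (S) in Hanwoo, the Korean native cattle breed (Bos taurus coreanae), by sequencing of poly(A) RNA. The comparison used the 8 muscle and 9 S libraries among 34 libraries read, chosen by the tissue that their labels name, and 8 animals gave both tissues. Replicates 1 to 9 are single animals of 30 months, with no treatment named in the labels. The study's methods describe a rib portion of muscle and fat, from which S was sampled. They do not state the site of the sequenced muscle. Each sex class of the labels (female, male and castrated male) gave 3 S libraries, and gave 2, 3 and 3 muscle libraries, respectively, because no muscle library of replicate 7 was read. The tissues were taken whole, so each library mixes the RNA of all cells in the piece.

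Skeletal muscle is built of multinucleated fibres packed with contractile filaments, and a short list of filament, energy and calcium-handling genes supplies much of its mRNA. White fat is built of adipocytes that make, store and release triglyceride, set in a stroma with vessels, preadipocytes and macrophages. In the bulk of either tissue, fewer cells of a type and less RNA per cell cannot be told apart.

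The tables name genes by Ensembl identifiers, and only the 31 genes of the study's primer table could be given a symbol. The primers of 6 of them, which the study used for qRT-PCR, are printed 5′ to 3′ as listed there beside the names. They were not aligned to any transcript here. TPM2 and DUSP27 stand for muscle, FASN and LHX8 for S, and GAPDH and ACTB are common reference genes.
TPM2 forward: agagtttgctgaaaggtcggtg
TPM2 reverse: atggaaaggagaagagagagggg
DUSP27 forward: ggtcaaggaagatgaggatgagg
DUSP27 reverse: cagggaggagaaggtgtctgttt
FASN forward: gtgcgtcctggtgtctaacctc
FASN reverse: ctcctcgggcttgtcttgttc
LHX8 forward: tgctcaggacaacaacccaga
LHX8 reverse: ggggcagaggaggagtgattag
GAPDH forward: caagatggtgaaggtcggagtg
GAPDH reverse: cgtgggtggaatcatactggaa
ACTB forward: ggacctctacgccaacacgg
ACTB reverse: ggagccgccaatccacac

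Counts on genes ranged from 3726376 to 6612376 in the muscle libraries and from 4913519 to 7184022 in S. Each muscle library had at least 413 CPM (counts scaled to a common library size) of DUSP27 against at most 0.317 in S, and each S library had at least 1055 CPM of FASN against at most 126 in muscle, so these genes went with the tissue labels. The animal label of muscle replicate 4 was in doubt. Muscle libraries were matched to animals over the 50 genes that varied most between animals in the fat depots. Of the 8 libraries, 7 matched their own animal best (r = 0.593 to 0.906). The library labelled muscle replicate 4 had r = -0.313 with its own animal and 0.579 with its best match, replicate 9, labelled male. Replicate 9 stayed its best match over 200 genes (r = 0.368) and 1000 genes (r = 0.14), but more weakly. Which animal this library came from is not settled. Muscle replicate 8 stood apart in another way. On the first principal component of log2 CPM, which held 81.2% of the variance, it lay at 75.7, against 106.1 to 135.4 in the other 7 muscle libraries and -110.8 to -98.94 in S. It also had the largest share of reads with several alignments among muscle libraries, 14.5% against 7.97% to 11.3%. Results are therefore given without one or the other for the main counts, but not for every gene.

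Of 12707 tested genes, 7972 (62.7%) differed between muscle and S at a false discovery rate (FDR) under 0.01 in the quasi-likelihood test of edgeR. These DEGs comprised 3875 genes higher in muscle (30.5% of those tested) and 4097 lower (32.2%). The size of the log2 fold change had a median of 0.892 among all genes tested, 1.31 among the higher DEGs and 1.53 among the lower DEGs. By fitted values, at more than 2-fold the split was 2594 higher and 3117 lower, and at more than 10-fold it was 518 and 512. At more than 100-fold the genes higher in muscle were the more numerous, 224 against 34. Without the library labelled muscle replicate 4, 7790 DEGs were called (3714 higher, 4076 lower), and without muscle replicate 8, 8465 (3960 higher, 4505 lower). This fit did not pair the tissues by animal. With the animal as a block, 7506 were called over 8 animals, and 6907 over 7 animals without replicate 4.

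**Figure D1:**
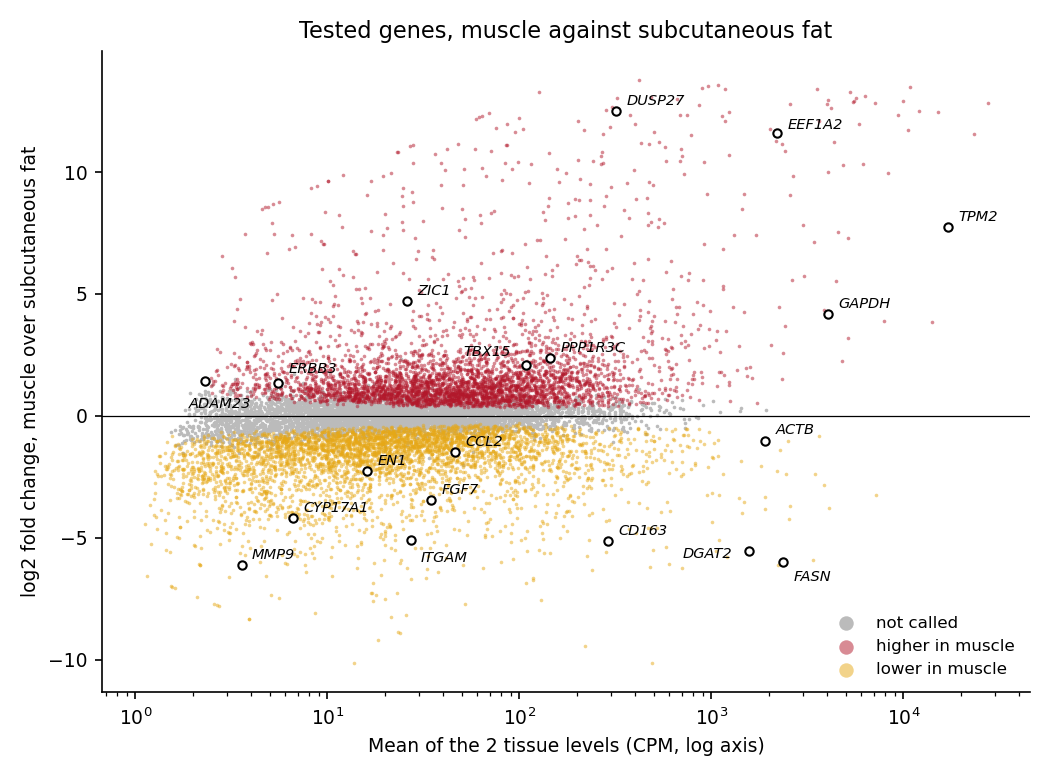
Log2 fold change of muscle over S (vertical axis) against the mean of the 2 tissue levels (CPM, log axis) for the 12707 tested genes, with called genes in colour and the 19 tested named genes ringed. The fold changes reach farther above 0 than below, with 224 genes over 100-fold higher in muscle and 34 over 100-fold lower.

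The direction of calls differed with the level of the gene. The tested genes were split into 4 bins of about equal size by their mean level over both tissues. In the lowest bin (3177 genes), 535 DEGs were higher in muscle and 1441 lower. In the highest bin (3177 genes), 1392 were higher and 769 lower. The share called changed less, from 59.3% to 68% over the 4 bins. The count filter was applied before TMM scaling, and a gene could pass it through a single tissue. At equal CPM after scaling, a muscle library had fewer counts of a gene than an S library of equal total. The split among low genes is thus not independent of the filter and of depth, whose part was not tested.

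The balance of higher and lower DEGs also depended on the scaling of the libraries. TMM factors were 0.609 to 0.883 in muscle and 1.26 to 1.42 in S. With library totals alone, the median log2 fold change of all tested genes went from -0.04 to -0.94, and the split became 1623 higher and 7720 lower, so that 17.4% of calls were higher in muscle in place of 48.6%. All 4097 lower DEGs, but 1623 of the 3875 higher DEGs, were called in the same direction under both, and 132 DEGs turned to a call of the other direction. RLE factors gave 3907 higher and 4077 lower, and TMM factors computed without the 20 leading muscle genes gave 3891 and 4085. Fold changes below are therefore relative to the TMM scaling, and without it each lies lower by close to that shift.

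Most calls were seen animal by animal. Of the higher DEGs, 3193 (82.4%) were higher in muscle in all 8 animals, and of the lower DEGs, 3169 (77.3%) were lower in all 8. In the 7 animals without replicate 4 these were 3216 and 3196. As a description of the genes so called, 95.7% to 99.5% of the higher DEGs were higher in muscle within an animal, except in replicate 8, where 89.7% were. The median log2 difference over the higher DEGs was 1.35 to 1.54 in the other animals and 0.99 in replicate 8, and over the lower DEGs it was -1.69 to -1.38 and -0.92. Animals varied by a common coefficient of 0.343 in muscle and 0.287 in S, and 0.29 in muscle without replicate 8.

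The ranges of the 2 tissues did not overlap in 4400 of the tested genes (34.6%), with all 8 muscle libraries above all 9 S libraries in 2333 and below in 2067. Without the library labelled muscle replicate 4 these were 2353 and 2084. Complete presence and absence was rarer. In all 24596 genes, 51 had a count in every muscle library and none in any S library, and 88 had the opposite pattern. These were mostly low genes, with a median of 20.2 counts per muscle library in the first set and 6.22 per S library in the second, and 19 and 11 of them had enough counts to be tested. Both sets rest on raw counts, which were not matched for depth between the tissues.

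The counts of muscle were concentrated on far fewer genes than those of S. The 20 genes with most counts in a library held 26.5% ± 2.63 of its gene counts in muscle (SD, n = 8; range 23.1% to 30.6%) and 11.8% ± 1.44 in S (SD, n = 9; 10.4% to 15.1%). The number of genes that held 50% of the counts was 168 ± 57.01 in muscle (102 to 278) and 745 ± 64.1 in S (633 to 815). The effective number of genes, the exponential of the Shannon entropy of the shares, was 1318 ± 246 in muscle (984 to 1759) and 3650 ± 232 in S (3145 to 3901). After thinning each library to 3726376 counts, 14500 ± 332 genes were detected in muscle (14083 to 15176) and 15652 ± 100.4 in S (15502 to 15794). Thinning made the totals equal, but not the counts left for genes outside the leading ones. The detected genes are therefore not a measure independent of the others.

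In none of these 4 measures did the libraries of the 2 tissues overlap. Muscle minus S was 14.7 percentage points for the leading 20 genes, -577 for the genes that held 50%, -2332 for the effective number and -1151 for the detected genes. The two-sided exact permutation test gave p = 8.23e-05 for each, and 8.23e-05 after adjustment over the 4, the smallest p that 8 against 9 libraries allow. Within the 8 animals with both tissues, the exact sign-flip test gave p = 0.00781 for each, and 0.0156 in the 7 animals without replicate 4, again the smallest possible. Without the library labelled muscle replicate 4 the differences were 14.5 percentage points, -572, -2310 and -1138 (exact permutation test, p = 0.000175 for each, the smallest possible). Muscle replicate 8 was the least concentrated muscle library in all 4, and muscle replicate 9 the most.

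**Figure D2:**
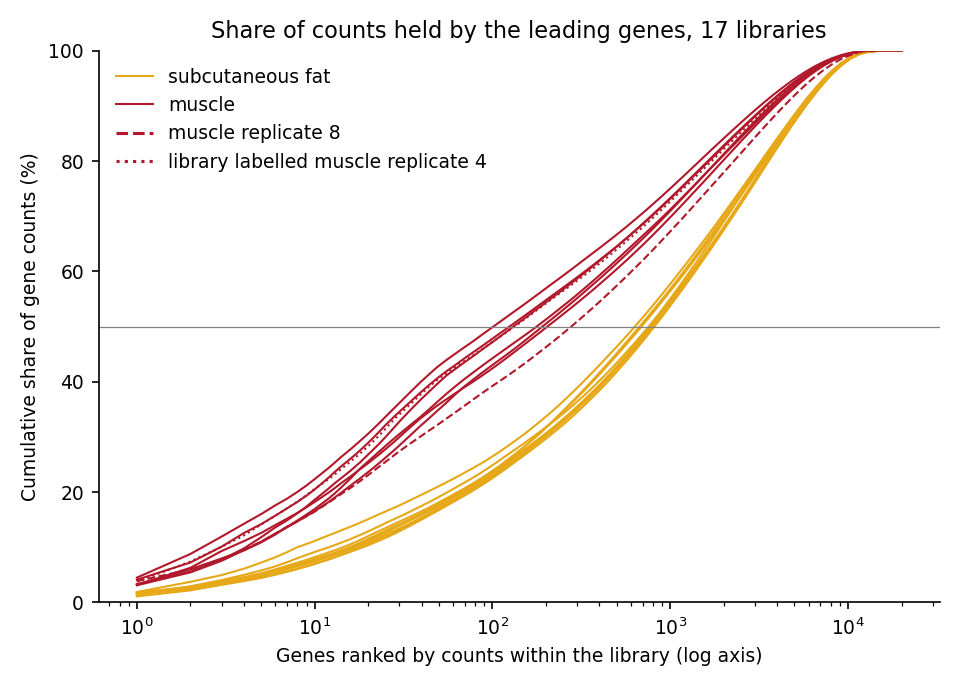
Cumulative share of gene counts (%) against the rank of genes by counts within each library (log axis), with 1 line per library. The muscle lines cross 50% at 102 to 278 genes and the S lines at 633 to 815.

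The other depots resembled S in these measures rather than muscle. The leading 20 genes held 9.56% ± 0.705 in omental fat (O, SD, n = 9) and 8.97% ± 0.829 in intramuscular fat (I, SD, n = 8), and the effective numbers were 4021 ± 316 and 3736 ± 246. No library of O or I reached the lowest muscle share of 23.1%.

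**Figure D3:**
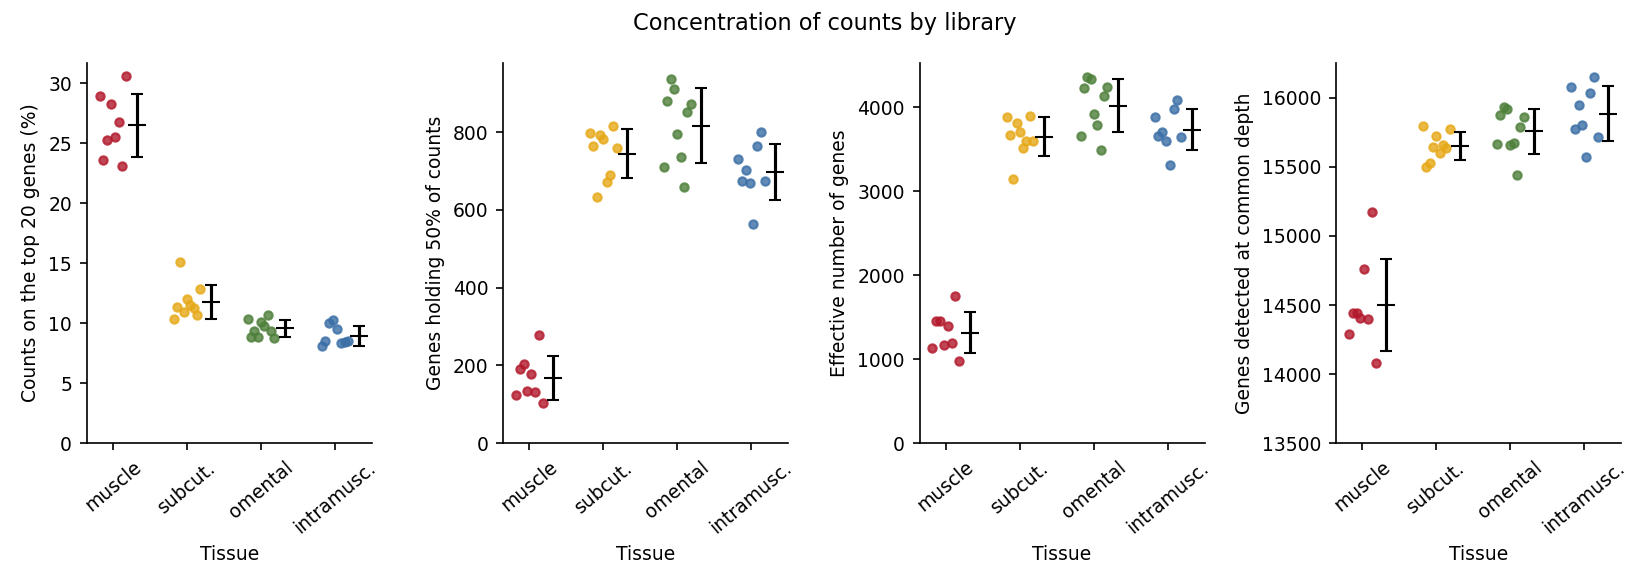
The 4 measures of concentration for each library (points) of muscle, S, O and I, with the mean and SD of the tissue beside the points. Muscle and S do not overlap in any panel, and the axis of the last panel does not start at 0.

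The leading genes of the tissues were different ones. The 20 genes with the largest mean share in muscle held 25.6% ± 2.97 of muscle counts and 0.35% ± 0.0701 of S counts. The 20 leading genes of S held 11.4% ± 1.41 of S counts and 0.878% ± 0.289 of muscle counts. No gene was on both lists. All 20 of each were called in the direction of their own tissue, against 30.5% of tested genes called higher and 32.2% called lower, but they were picked for a large share in that tissue, which partly fixes this count. The leading muscle genes differed by log2 fold changes of 3.87 to 13.5 and those of S by 0.819 to 6.12 in size. All of them had counts in at least 1 library of the other tissue. Over all DEGs, genes higher in muscle took 77% of muscle counts and 21.3% of S counts, and genes lower in muscle took 7.95% and 51.7%.

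The gene with most counts in each tissue has no name in the tables read. ENSBTAG00000046332, first in muscle, had 123250 to 297439 counts in muscle libraries (3.32% of counts on average) and 17 to 146 in S. ENSBTAG00000014835, first in S, had 55467 to 112354 counts in S libraries (1.54% on average) and 2222 to 7021 in muscle. Its log2 fold change was -3.26 ± 0.259 (SE), with an adjusted p of 5.33e-10. The largest fitted rise among all DEGs was in ENSBTAG00000018267, with 1656 to 4548 counts in muscle and 0 to 2 in S. Among DEGs with counts in all libraries, the largest fall was in ENSBTAG00000007273, with 1064 to 15062 counts in S and 1 to 10 in muscle, a log2 fold change of -10.14 ± 0.629 (SE, adjusted p = 1.08e-11). Among the 20 leading muscle genes, the highest library exceeded the lowest by 1.57 to 22.8 times (median 3.01), and among the 20 of S by 1.64 to 7.77 times (median 2.74).

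Of the 31 named genes, 19 had enough counts to be tested and all 19 were DEGs, 9 higher in muscle and 10 lower, against 62.7% of all tested genes. Most of the 31 were chosen by the study for differences between fat depots of these same animals, so their share, and that of each group of them below, is not independent evidence. All 19 stayed called without the library labelled muscle replicate 4, and also without muscle replicate 8. The median log2 fold change of the 19 was -1.02, against -0.04 over all tested genes. Levels are CPM with TMM factors over all 34 libraries, given as the lowest, median and highest library, and fold changes are from the fit of muscle and S.

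TPM2, DUSP27 and EEF1A2 had the largest rises among the named genes. TPM2, the beta tropomyosin of the thin filament, was at 22420, 30940 and 52080 CPM in muscle and 69.5, 167 and 263 CPM in S. Its lowest muscle library lay far above its highest S library, and muscle replicate 5 was the highest. The log2 fold change was 7.74 ± 0.398 (SE), with an adjusted p of 5.23e-13. TPM2 ranked 3 by mean share of counts in muscle, with 2.06% ± 0.592, and held 0.0181% ± 0.00843 in S.

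DUSP27 (also called STYXL2), a phosphatase-like protein known from striated muscle, was close to an on and off gene. The name is the primer table's. Another table of the study writes DUSP23 for what appears to be the same assay, so the symbol is less sure than the identifier ENSBTAG00000008652. That table also writes ERBB2, CYP17A2, DGAT, IGF2BP and SLP1 where the primer table has ERBB3, CYP17A1, DGAT2, IGF2BP2 and SLPI. Those symbols are likewise less sure than their identifiers. DUSP27 had 413, 667 and 816 CPM in muscle, and in S 0, 0 and 0.317 CPM, which were 5 counts in all 9 libraries together. Muscle exceeded S by a log2 fold change of 12.50 ± 0.364 (SE), with an adjusted p of 1.42e-16. EEF1A2, the translation elongation factor isoform of muscle and nerve, was at 2654, 4475 and 5710 CPM in muscle and 0.151, 0.568 and 5.82 CPM in S. Muscle replicate 8 was the lowest of the muscle libraries and S replicate 1 the highest of S. The log2 fold change of EEF1A2 was 11.60 ± 0.562 (SE, adjusted p = 1.84e-13), and 12.37 without replicate 1.

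Of 32 genes listed for glycogen and glycolysis, 2 could be named, and both were higher in muscle, against 30.5% of all tested genes. PPP1R3C, which targets protein phosphatase 1 to glycogen, was at 104, 264 and 370 CPM in muscle and 26.1, 47.9 and 63.6 CPM in S. Its ranges did not overlap, and muscle replicate 8 was the lowest muscle library. Its log2 fold change was 2.38 ± 0.234 (SE, adjusted p = 1.39e-08). GAPDH, an enzyme of glycolysis, was at 4470, 6501 and 12990 CPM in muscle and 286, 394 and 601 CPM in S, with a log2 fold change of 4.18 ± 0.259 (SE, adjusted p = 1.08e-11).

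ACTB, the cytoplasmic actin, moved the other way, with 849, 1048 and 2758 CPM in muscle and 1840, 2258 and 3499 CPM in S. Only muscle replicate 8 reached the range of S, and ACTB was lower in muscle in 7 of 8 animals. ACTB had a log2 fold change of -1.02 ± 0.242 (SE, adjusted p = 0.000777), and the call did not hold for a change over 2-fold (adjusted p = 0.5). Without muscle replicate 8 the log2 fold change of ACTB was -1.28 (adjusted p = 4.7e-06). The count ratio of GAPDH to ACTB needs no scaling between libraries. It was 2.15 to 13.5 in muscle (median 6.66) and 0.122 to 0.189 in S (median 0.16), without overlap, a difference of 5.22 on the log2 scale (two-sided exact permutation test, p = 8.23e-05, the smallest possible).

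Of 22 genes listed for fatty acid synthesis and 32 for triglyceride synthesis and breakdown, 1 each could be named. Both were lower in muscle without overlap of the tissues, against 32.2% of all tested genes called lower and 34.6% without overlap in either direction. FASN, the fatty acid synthase, was at 50.4, 65 and 126 CPM in muscle and 1055, 4167 and 8196 CPM in S. S replicate 3 was the lowest of the S libraries and still lay above every muscle library. FASN had a log2 fold change of -6.01 ± 0.401 (SE, adjusted p = 3.54e-11). FASN ranked 8 by mean share of counts in S, with 0.563% ± 0.293, against 0.00453% ± 0.00151 in muscle.

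DGAT2, which joins the last fatty acid to diacylglycerol, was at 21, 49.6 and 223 CPM in muscle and 1548, 3048 and 4431 CPM in S. Its highest muscle library was replicate 2, with the next at 81.1 CPM. The log2 fold change was -5.56 ± 0.448 (SE, adjusted p = 6.64e-10), and -3.74 in DESeq2. CYP17A1, a steroid hydroxylase, was at 0, 0.751 and 1.18 CPM in muscle and 3.88, 8.36 and 31.5 CPM in S, without overlap, with a log2 fold change of -4.19 ± 0.534 (SE, adjusted p = 5.62e-07).

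**Figure D4:**
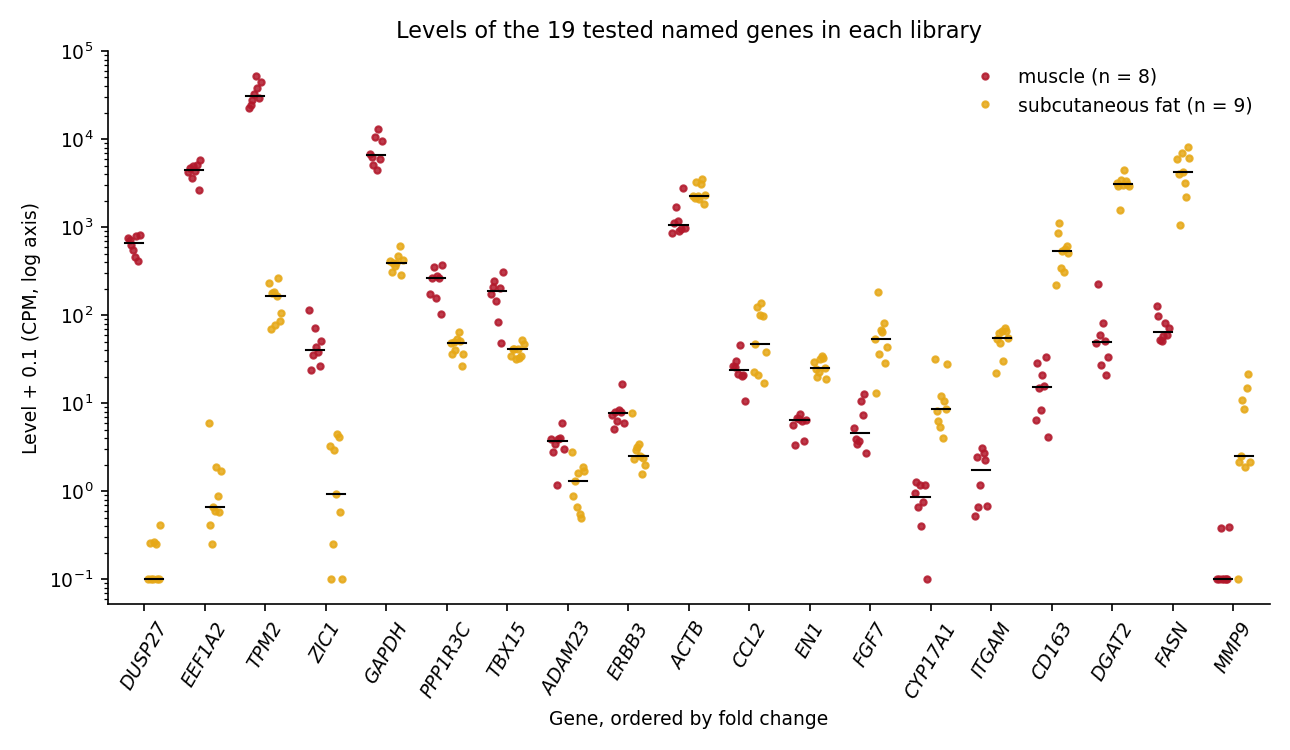
Levels (CPM + 0.1, log axis) of the 19 tested named genes in each muscle (n = 8) and S (n = 9) library, with points for libraries and black bars for medians, ordered by fold change. The tissues are apart for DUSP27, EEF1A2 and TPM2 at the left and for FASN and DGAT2 at the right, and overlap for ACTB, CCL2, ADAM23, ERBB3, TBX15 and MMP9.

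Of 20 listed markers of macrophages, 4 could be named and 3 tested, and the 3 were lower in muscle, against 32.2% of all tested genes. CD163, a scavenger receptor of macrophages, was at 4.06, 15.3 and 33.6 CPM in muscle and 218, 534 and 1099 CPM in S. CD163 had a log2 fold change of -5.15 ± 0.428 (SE, adjusted p = 1.07e-09). ITGAM, the integrin alpha M chain of myeloid cells, was at 0.426, 1.62 and 2.97 CPM in muscle and 21.8, 55.4 and 71 CPM in S, with a log2 fold change of -5.08 ± 0.339 (SE, adjusted p = 3.5e-11). Neither gene overlapped between tissues.

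MMP9, a gelatinase of leukocytes, had 2 counts in the 8 muscle libraries and 445 in the 9 S libraries, 89.7-fold lower in muscle with an exact 95% interval of 24.7 to 743 for counting error only. S replicate 1 had no count, and the other S libraries lay at up to 21.2 CPM. The fitted log2 fold change was -6.14 ± 1.09 (SE, adjusted p = 3.89e-05), and it was -6.80 without replicate 3 and -6.83 without replicate 9, the replicates with the muscle counts. Without S replicate 7, as in every fit limited to animals with both tissues, MMP9 had too few counts to be tested.

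CCL2, a chemokine that attracts monocytes, gave a call that depended on the fit. It was at 10.4, 23.6 and 45.8 CPM in muscle and 16.9, 47.04 and 137 CPM in S, with wide overlap, and was lower in muscle in 5 of 8 animals. The log2 fold change was -1.49 ± 0.41 (SE, adjusted p = 0.00289). With the animal as a block it was -1.09 (adjusted p = 0.0111), and without replicate 6, whose S library was the highest, it was -1.26 (adjusted p = 0.0129), neither of which passed the threshold of 0.01. The block takes the doubtful replicate 4 as a pair, and without it, over 7 animals, CCL2 was called at -1.24 (adjusted p = 0.00816). FGF7, a growth factor of mesenchymal cells that acts on epithelium, was at 2.61, 4.47 and 12.7 CPM in muscle and 13.1, 53.4 and 183 CPM in S, with a log2 fold change of -3.45 ± 0.457 (SE, adjusted p = 9.18e-07). Its highest muscle library fell just short of its lowest S library.

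Transcription factors that mark position along the body went in both directions. ZIC1, a zinc finger factor, was at 23.9, 40.4 and 114 CPM in muscle and 0, 0.835 and 4.33 CPM in S. The ranges were apart, with a log2 fold change of 4.71 ± 0.559 (SE, adjusted p = 2.11e-07). TBX15, a T-box factor of the trunk and limb skeleton, was at 48.1, 189 and 310 CPM in muscle and 31.8, 40.7 and 52.4 CPM in S. Muscle replicate 8 alone reached the range of S, and TBX15 was higher in muscle in 7 of 8 animals, with a log2 fold change of 2.10 ± 0.262 (SE, adjusted p = 4.13e-07).

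EN1, an engrailed homeobox factor, was lower in muscle, at 3.25, 6.28 and 7.43 CPM against 18.8, 25.1 and 34.2 CPM in S. The ranges were apart, and its log2 fold change was -2.27 ± 0.192 (SE, adjusted p = 1.49e-09). Other factors had counts in S and few or none in muscle. LHX8, a LIM homeobox factor, had no count in muscle and 5 to 41 counts in each S library, at least 23.7-fold lower in muscle against a floor of 3 counts over the group. TBX5, the T-box factor of the forelimb and heart, had 1 count in muscle and 85 in S, 34.3-fold lower with an interval of 5.99 to 1370. ISL1 and TCF21 had no count in muscle, and 7 and 1 counts in all S libraries.

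ADAM23, a membrane protein of the disintegrin family, and ERBB3, a neuregulin receptor of Schwann cells, were low genes and higher in muscle. ADAM23 had too few counts to be tested without replicate 1 or without replicate 8. It was at 1.08, 3.6 and 5.78 CPM in muscle and 0.394, 1.21 and 2.68 CPM in S, higher in muscle in 8 of 8 animals, with a log2 fold change of 1.43 ± 0.356 (SE, adjusted p = 0.0012). ERBB3 was at 5.02, 7.52 and 16.3 CPM in muscle and 1.45, 2.39 and 7.61 CPM in S, higher in 7 of 8 animals, with a log2 fold change of 1.35 ± 0.299 (SE, adjusted p = 0.000405). Without muscle replicate 8 the log2 fold change of ERBB3 was 1.11 (adjusted p = 0.00147). Both calls were lost without scaling factors, at 0.54 for ADAM23 and 0.47 for ERBB3 (adjusted p = 0.197 and 0.195). The call of ERBB3 was also lost in one fit over the 4 tissues, at 1.41 (adjusted p = 0.0231).

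The other 12 named genes had too few counts to pass the filter. Without the filter, CCR2, SLPI, MFSD2A, TBX5 and LHX8 were called lower in muscle, and TNMD and IGF2BP2 higher, with adjusted p from 2.56e-07 to 0.00412. IGF2BP2, an RNA-binding protein, was at 1.49, 5.29 and 9.43 CPM in muscle and 0, 0.263 and 0.792 CPM in S, without overlap. TNMD, the tenomodulin of tendon, was at 0.281, 1.63 and 6.87 CPM in muscle and 0, 0.132 and 1.51 CPM in S, with overlap. CCR2, the receptor of CCL2, was at 0, 0.342 and 1.48 CPM in muscle and 1.02, 2.68 and 4.59 CPM in S. MFSD2A, a transporter of lysophospholipids, had no count in muscle and 94 counts in S, at least 12.6-fold lower. SLPI, a protease inhibitor, had 1 count in muscle and 51 in S, 20.6-fold lower with an interval of 3.53 to 828. UCP1 of brown fat, BDNF and STRA6 had 1, 2 and 4 counts in muscle and 8, 36 and 15 in S, and were not called.

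Muscle libraries thus held some counts of genes far higher in S, and S libraries some counts of genes far higher in muscle. FASN, DGAT2, CD163 and ITGAM had a count in all 8 muscle libraries, and TPM2 and EEF1A2 in all 9 S libraries, while DUSP27 had none in 5 of the 9. The cells that these counts came from, and their part in the fold changes, were not tested.

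Muscle was also compared with the other depots, using the same muscle libraries. Against O, 8164 of 12878 tested genes (63.4%) were called, 3848 higher and 4316 lower, and against I, 7441 of 12447 (59.8%), 3730 higher and 3711 lower. The median absolute log2 fold changes were 0.887 and 0.915, close to the 0.892 against S. The 3 comparisons share the muscle libraries, so their values are set side by side without a test between them.

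For FASN, the log2 fold change of muscle was -6.01 against S, -5.29 against O and -3.17 against I. For TPM2 the values were 7.74, 7.63 and 4.50, and for DUSP27 12.50, 13.80 and 6.09. DUSP27 had at most 0.317 CPM in an S library and 0.171 CPM in an O library. Its values against S and O thus rest on levels near the floor. I libraries held more DUSP27 and TPM2 than S did, with medians of 8.72 CPM and 1469 CPM. For PPP1R3C the values were 2.38, 2.64 and 0.05, the last not called (adjusted p = 0.875).

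ADAM23 and ERBB3 changed sign with the depot. ADAM23 was higher in muscle than in S but lower than in O and I, at -2.36 and -2.06, and ERBB3 likewise at -2.20 and -1.92, and all these values were called. EN1 was lower in muscle than in S, and its values of 0.61 against O and 0.27 against I were not called (adjusted p = 0.144 and 0.474). TBX15 and ZIC1 differed most from O, at 9.49 and 10.88, where ZIC1 had no count in any of the 9 libraries, so that its value there is no bound. CCL2 fell by 4.59 on the log2 scale against I.

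**Figure D5:**
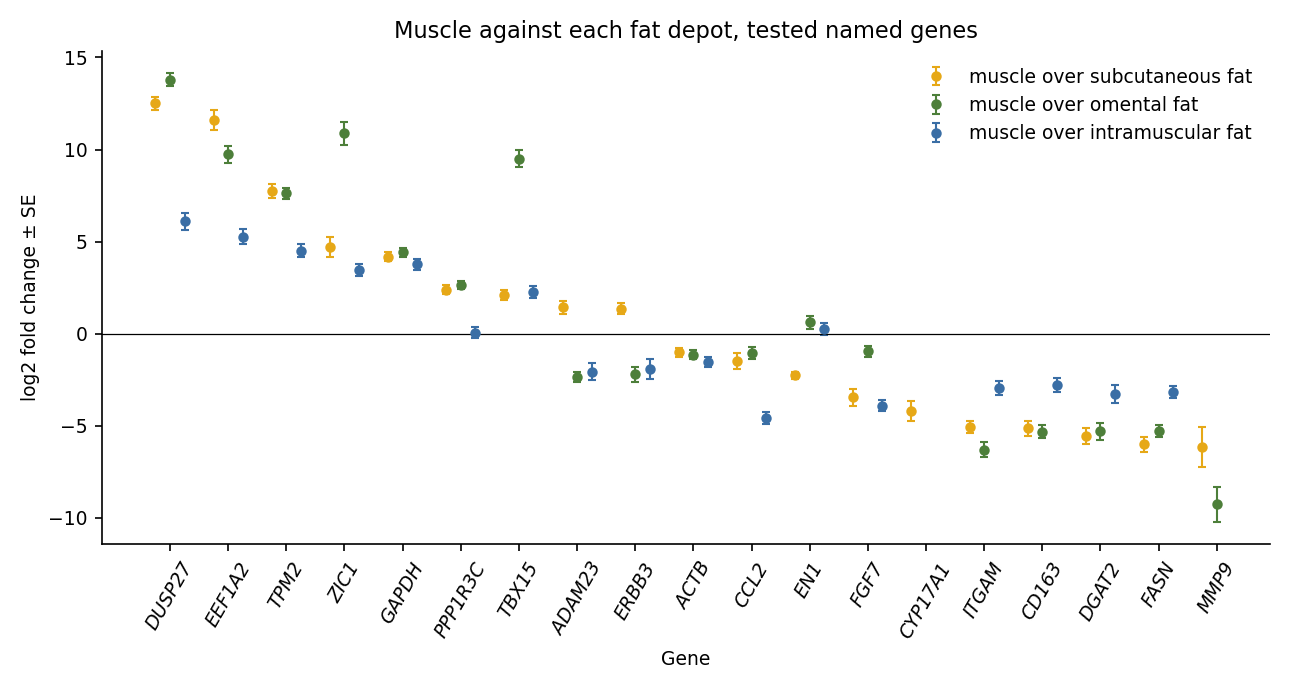
Log2 fold change ± SE of muscle over S, O and I for the 19 tested named genes, with a point left out where the gene was not tested in that comparison. ADAM23 and ERBB3 lie above 0 against S and below 0 against O and I.

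The labels name females, males and castrated males, while the study's methods speak of steers, so what the sex classes stand for is not settled. In the quasi-likelihood test of edgeR for an interaction of sex class with tissue, 0 of 12707 genes (0%) were called, with 1699 at an unadjusted p under 0.05. The likelihood ratio test called 27, and 4 were called with the animal as a block, and none of either set has a symbol here. The classes held 2 or 3 animals with both tissues each, the doubtful replicate 4 among the females.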

How the data were processed

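Per the labels and the study's methods, the authors mapped paired-end poly(A) reads to the bovine genome with TopHat2 2.0.2 and assigned them to Ensembl genes with HTSeq 0.5.3p3. The deposited files hold raw counts, 1 library each, for 24596 genes, and 5 more lines naming no gene, which held 63.3% to 69.6% of a library's counts and were left out. Reads on no annotated feature made up 56.3% of a muscle library's counts and 60.5% of an S library's on average. The strand setting is not given in the sources used here, so how reads of overlapping genes were assigned is not known. Pairs of libraries within a tissue were checked for duplicates (lowest chi-square per degree of freedom 13.7).

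Genes were kept by filterByExpr (count minimum 10), scaled with TMM and tested with edgeR 4.0.16 (quasi-likelihood, FDR under 0.01, no block, R 4.3.3). The SE of a log2 fold change is its size over the root of F. Alternatives were the likelihood ratio test, DESeq2 1.42.0, other scalings, filters and thresholds, the animal as a block and libraries left out. Exact permutation tests used scipy 1.17.1. The pipeline was tested on simulated data, where few genes differed between the tissues and as many rose as fell. That simulation held no large shift of composition like the one here, so it does not bear on the choice of scaling. Library numbers pair muscle and S by the animal of the labels. Same-animal correlations of deviations were -0.05 to 0.376 over 11987 genes. Their median was 0.0092, against a median of 0.038 between different animals.

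Named genes are those of the primer table and the extremes by fold change or share. Members and lists were chosen with earlier results of these data known. Of 678 symbols in 33 lists of genes, 31 had an identifier, so pathways were not analysed here. The replicates are animals, and p-values set the tissue difference against the spread between libraries. The main fit took the libraries as independent, although 8 animals gave both tissues.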

Additional observations from a re-analysis of the deposited data

Results flagged for a closer look

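In 46 groups of muscle or S libraries, 6 held a library far from the others by Dixon's criterion. The groups were the 19 tested named genes and 4 measures of concentration in each tissue. For values that follow a normal distribution, about 1 group in 20 is flagged. CPM were taken without a log transform and each flagged library was the highest of its group, so that rate need not hold here. DGAT2 in muscle replicate 2 was at 223 CPM, with the next library at 81.1. FGF7 in S replicate 3 was at 183 CPM, with the next at 81.9. S replicate 1 was the highest for EEF1A2, at 5.82 CPM against 1.79, and for ERBB3, at 7.61 CPM against 3.34. Muscle replicate 8 was the highest muscle library for ERBB3, at 16.3 CPM against 8.32, and for ACTB, at 2758 CPM against 1682.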

How the results depend on the processing

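Of 635 values recomputed under alternatives, 619 kept their direction and side of the threshold, or for counts stayed within 1.5 times, and none reversed. The values are not independent, since the fits share libraries, and leaving out replicate 7 equals keeping the 8 animals with both tissues. Counts of genes cannot reverse, while 132 single DEGs turned to the other direction without scaling factors. Without scaling factors, 1623 genes were higher in muscle and 7720 lower. For a fold change over 2, 3571 genes were called (1651 higher, 1920 lower), and CCL2, ADAM23, ERBB3 and ACTB were not (adjusted p = 0.11, 0.102, 0.112 and 0.5), since that test asks for more. The interaction of sex class with tissue gave 27 genes by the likelihood ratio test and 4 with the replicate block, where the cause was not tested. With the replicate block over 8 animals, 7506 genes were called (3601 higher, 3905 lower), and among the named genes CCL2 lost its call and MMP9 was not tested. Without replicate 4 the block, over 7 animals, called 6907 (3307 higher, 3600 lower), CCL2 included, and again left MMP9 untested. Leaving out replicates without the block gave 7424 to 8465 called genes (3547 to 3960 higher, 3809 to 4505 lower), differences of 14.2 to 15.3 percentage points for the leading 20 genes, -596 to -564 genes for 50% of counts, -2415 to -2275 for the effective number and -1250 to -1077 for detected genes. Leaving out muscle replicate 8 and the block or sign-flip test without replicate 4 were added after seeing the data. A version without mitochondrial genes was not run, since no table names them. Depth limits mainly the genes with few counts.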
